A study of Mus musculus with 15 samples.

Results

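The 41 genes described here encode the integrins, the integrin-linked kinase (ILK) complex and the proteins that join both to the actin cytoskeleton, out of 21755 protein-coding genes on chromosomes 1 to 19 and X. They form a family list of integrin alpha and beta subunits, 7 genes of the ILK-PINCH-parvin complex and 8 linkers and activators, listed by what they encode, and the list was drawn up with earlier results of these data known. H3K4me3, a methylation of histone H3 that marks active start sites, was profiled in the livers of 15 mice by PAT-ChIP-seq, a chromatin immunoprecipitation adapted to formalin-fixed, paraffin-embedded tissue, with 1 library per mouse. Each deposited list holds the islands of a library, which are stretches of 200 bp windows enriched in reads, and gives every island a score. All mice were wild-type females, C57BL/6 by the labels and C57BL/6J by the study's methods, and 3 mice received each of 5 diets. The labels give an age of 12 months, whereas the methods give 10 months of feeding started at 3 months of age, and these do not add up. SD was the standard diet ad libitum, CR was a restricted daily amount of standard feed, and HF was a high-fat feed ad libitum of another formula. YD and RD were based on the standard feed with its maize replaced by seed powder, from an anthocyanin-free yellow corn in YD and from a near-isogenic, anthocyanin-rich purple corn in RD, so that they differed from SD in the corn and from each other mainly in the pigment. Sections of whole liver were used, and for every gene below fewer cells of a type and less mark per cell cannot be told apart.

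Integrins are receptors of an alpha and a beta subunit that hold cells to the extracellular matrix or to other cells, and the pairing sets the ligand. Talin and kindlin bind the beta tail and switch the receptor on, while ILK, with PINCH and parvin, forms an adaptor complex that links the tail to actin and passes on survival and growth signals. In liver, integrins with the beta1 subunit predominate on hepatocytes, the beta2 integrins are receptors of leukocytes including Kupffer cells, and the alphav integrins of hepatic stellate cells are known for activating latent TGF-beta.

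For each gene, the widest island lying within 1 kb of any annotated transcription start site (TSS; GENCODE M21, mm10) was taken in every list, and its width was set to 0 bp where the list held none. The score was used only as a percentile within its own list, 100 being the highest-scoring island, because scores are not scaled between libraries. Differences between diets were tested with limma on log2(width + 200 bp) over 15 libraries and all 11200 coding genes with an island in at least 3 libraries, and adjusted p-values were taken over those genes. A difference on this scale takes in both the width of an island and whether it was called at all, and narrower and wider are used for both. It understates the change of narrow islands. The lists held from 7825 to 33752 islands, the score steps put the reads behind them between 5589269 and 15449854, and between 17.5 and 54.6% of all coding genes had an island. Of 8 hepatocyte marker genes, 4 to 8 had an island in each library. The 5 megakaryocyte and platelet markers had none in any list. The library name has the form PATChIP in 5 lists (CR_1, CR_2, HF_2, HF_3 and RD_1) and ChIP in the other 10.

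Promoter sequences are shown for 6 of these genes to set start sites with an island in all 15 lists, in part of them and in none beside each other. Each run is the 250 bases upstream of the RefSeq start, 5′ to 3′ on the gene's strand (GRCm38.p6), holds no annotated exon, and has its CG dinucleotides, the sites of CpG methylation, in capitals. The alpha5 and vinculin genes had an island in every list, Itgb1 in 12 and Itgav in 10, Fermt3 in HF_1 and HF_3 only, and Itgam in no list.
Itga5, chr15:103366792-103367041, minus strand: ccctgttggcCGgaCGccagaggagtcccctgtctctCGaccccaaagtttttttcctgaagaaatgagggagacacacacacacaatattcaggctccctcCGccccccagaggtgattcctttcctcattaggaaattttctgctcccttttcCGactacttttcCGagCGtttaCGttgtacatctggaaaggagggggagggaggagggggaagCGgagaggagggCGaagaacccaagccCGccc
Vcl, chr14:20929148-20929397, plus strand: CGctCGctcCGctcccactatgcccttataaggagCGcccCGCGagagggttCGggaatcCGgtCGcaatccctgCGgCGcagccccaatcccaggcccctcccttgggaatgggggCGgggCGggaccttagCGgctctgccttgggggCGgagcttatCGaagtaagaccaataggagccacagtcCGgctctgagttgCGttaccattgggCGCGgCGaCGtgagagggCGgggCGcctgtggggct
Itgb1, chr8:128685404-128685653, plus strand: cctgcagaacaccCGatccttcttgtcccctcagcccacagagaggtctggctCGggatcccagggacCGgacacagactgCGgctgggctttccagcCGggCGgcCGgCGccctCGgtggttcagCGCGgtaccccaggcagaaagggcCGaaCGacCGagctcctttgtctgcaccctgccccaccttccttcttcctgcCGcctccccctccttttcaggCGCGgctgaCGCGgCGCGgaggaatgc
Itgav, chr2:83724147-83724396, plus strand: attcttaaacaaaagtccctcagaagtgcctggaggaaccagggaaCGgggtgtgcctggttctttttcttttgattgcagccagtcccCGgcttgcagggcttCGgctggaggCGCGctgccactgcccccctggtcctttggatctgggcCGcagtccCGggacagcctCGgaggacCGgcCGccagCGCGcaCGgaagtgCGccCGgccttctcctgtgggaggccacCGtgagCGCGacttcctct
Fermt3, chr19:7019470-7019719, minus strand: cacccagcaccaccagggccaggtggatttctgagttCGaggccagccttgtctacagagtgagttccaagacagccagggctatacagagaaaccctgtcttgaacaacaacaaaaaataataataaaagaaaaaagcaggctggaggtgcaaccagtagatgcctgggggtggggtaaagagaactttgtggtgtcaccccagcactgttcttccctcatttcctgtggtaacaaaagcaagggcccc
Itgam, chr7:128062390-128062639, plus strand: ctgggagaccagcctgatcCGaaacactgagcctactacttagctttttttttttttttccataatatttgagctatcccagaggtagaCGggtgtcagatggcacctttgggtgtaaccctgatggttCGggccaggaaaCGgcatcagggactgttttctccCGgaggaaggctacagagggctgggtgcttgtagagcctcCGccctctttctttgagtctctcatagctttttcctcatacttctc
These windows hold 11 CG in Itga5, 24 in Vcl, 21 in Itgb1, 18 in Itgav, 1 in Fermt3 and 6 in Itgam, beside a median of 6 over 32619 RefSeq promoters. An island overlapped the window itself in 11, 12, 11, 9, 2 and 0 lists in the same order. The 6 genes were picked by where islands were called, so no link of CG count to islands can be read from them. The GC box letters GGGCGG, searched on both strands, occur 4 times in Vcl, 2 times in Itga5 and 1 time each in Itgb1 and Itgam, and 33.0% of all promoters hold them. The letters GAGGAA, the purine-rich core bound by PU.1, occur 2 times in Itgav and in Itgam and 1 time in Itga5 and in Itgb1, with 23.4% of all promoters holding them. TGACTCA (AP-1), CCGGAAGT (ETS) and TATAAA occur in none of the 6 windows and in 4.48, 2.9 and 12.4% of all promoters. A match describes the letters only. RefSeq entries were at hand for 28 of the 41 genes (68.3%), under the 80% set for a comparison of CG content across the family, which is therefore void. No entry was used for Itga6, Itga7, Itgad, Itgae, Itgal, Itgb2, Itgb3, Itgb4, Parva, Lims2, Ptk2, Tln2 and Pxn.

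Of the 41 genes, 5 had an island at a start site in all 15 lists (12.2%, against 9.46% of all coding genes), 23 in 1 to 14 lists (56.1 against 50.5%) and 13 in none (31.7 against 40.0%). The 5 genes marked throughout were Itga5, Ilk, Tln1, Vcl and Pxn, so that no beta subunit was among them. The 13 without an island were the collagen receptor subunits Itga2, Itga10 and Itga11, the platelet subunit Itga2b, the leukocyte subunits Itgad, Itgae, Itgam and Itgax, the beta subunits Itgb4, Itgb6 and Itgb7, the leukocyte parvin Parvg, and Tln2. The absence of an island says only that none was called in these lists. By diet, SD lists marked 16, 17 and 14 of the 41 genes, CR lists 15, 19 and 18, HF lists 25, 20 and 24, YD lists 9, 9 and 6, and RD lists 14, 12 and 11. All 6 corn-diet lists were thus at or below the lowest SD list, and all 3 HF lists were above every other list. As a share of the family, the diet means (± SD, n = 3) came to 19.5% ± 4.22 for YD, 30.1% ± 3.73 for RD, 38.2% ± 3.73 for SD, 42.3% ± 5.08 for CR and 56.1% ± 6.45 for HF. Over all coding genes they were 22.8% ± 4.69, 31.2% ± 3.46, 39.6% ± 5.98, 43.4% ± 6.92 and 51.2% ± 3.53 in the same order, so the diets ranked alike for the family and for all coding genes, and in each diet the 2 means differed by less than the family's own SD.

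**Figure D1:**
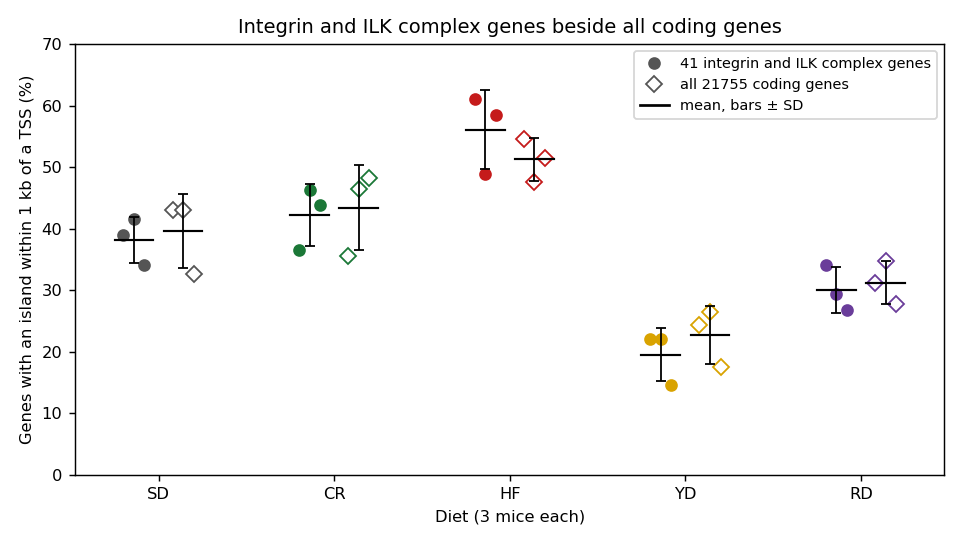
Percentage of genes with an island within 1 kb of a TSS, by diet: filled circles are the 41 integrin and ILK complex genes and open diamonds all 21755 coding genes, 1 point per library, with the mean and SD of 3 mice. The family means run from 19.5% in YD to 56.1% in HF, and the means of all coding genes from 22.8 to 51.2% in the same order of diets.

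**Figure D2:**
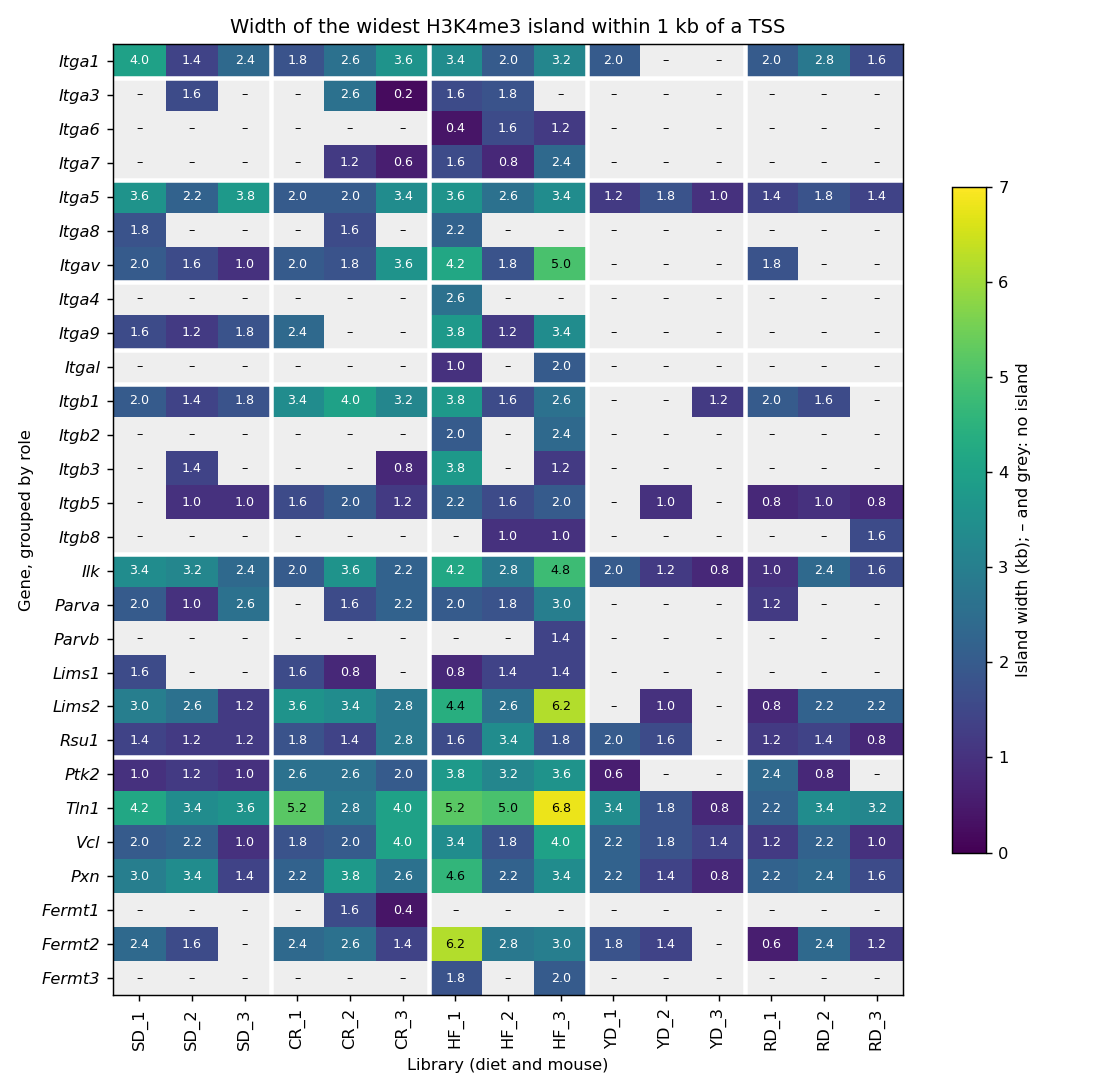
Width in kb (colour and printed value) of the widest island within 1 kb of a TSS for the 28 genes with an island in at least 1 list (vertical axis, by role) in the 15 libraries (horizontal axis, by diet). Ilk, Itga5, Tln1, Vcl and Pxn are filled in every column, while Itgav, Parva, Itga9 and Lims1 are empty in at least 5 of the 6 corn-diet columns.

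Among the alpha subunits that bind RGD-containing ligands, Itga5 and Itgav had different patterns. Itga5, the alpha subunit of the fibronectin receptor, was 3600, 2200 and 3800 bp wide in SD, 2000, 2000 and 3400 bp in CR, 3600, 2600 and 3400 bp in HF, 1200, 1800 and 1000 bp in YD, and 1400, 1800 and 1400 bp in RD. Every width in the corn diets was below every width in the other diets. It was the only member separated in this way, beside 0.735% of all coding genes. The stretch at chr15:103365401-103366400 lay within the island of all 15 lists. The island spanned the TSS in 11 lists, and in 4 of the corn-diet lists it began downstream of it. Itgav, the alpha subunit of the vitronectin and TGF-beta-activating receptors, was 2000, 1600 and 1000 bp wide in SD, 2000, 1800 and 3600 bp in CR and 4200, 1800 and 5000 bp in HF. It had no island in YD, and in RD it was marked in RD_1 alone, at 1800 bp. Of the other RGD-binding subunits, Itga8, found on stellate cells and other mesenchymal cells, had islands in 3 lists. Those of CR_2, 1600 bp wide, and HF_1, 2200 bp wide, lay at the same start site, which is 603 bp from that of an antisense transcript, E030013I19Rik. The SD_1 island, 1800 bp wide, lay at another annotated start, at chr2:12132001-12133800.

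Itga1 and Itga9, which bind other ligands, were marked in 13 and 7 lists. Itga1, a collagen receptor subunit, was 4000, 1400 and 2400 bp wide in SD, 1800, 2600 and 3600 bp in CR, 3400, 2000 and 3200 bp in HF, 2000, 0 and 0 bp in YD, and 2000, 2800 and 1600 bp in RD, so that 2 YD lists alone lacked it. A start site of Gm49395 lies 43 bp away on the same strand, and an island there cannot be assigned to either. Itga9, whose receptor binds tenascin and VCAM1, was 1600, 1200 and 1800 bp wide in SD, 2400, 0 and 0 bp in CR, and 3800, 1200 and 3400 bp in HF, with no island in any corn-diet list. All 7 of its islands began downstream of the annotated TSS, and chr9:118607401-118608200 was common to them. Its score percentile was 7.15, 54.5 and 0.652 in SD, among the lowest-scoring islands in SD_1 and SD_3.

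The laminin receptor subunits were marked mostly in HF. Itga6, which pairs with beta1 or beta4, had no island outside HF and was 400, 1600 and 1200 bp wide there. Itga7, best known from muscle, was 1600, 800 and 2400 bp wide in HF, 1200 bp in CR_2 and 600 bp in CR_3, and had no island in SD, YD or RD. Itga3 was 1600 bp wide in SD_2, 2600 and 200 bp in CR_2 and CR_3, and 1600 and 1800 bp in HF_1 and HF_2, again with none in the corn diets. The laminin-binding group thus had no island in any of the 6 corn-diet lists. The same held for Itga4 and Itga9 and for the leukocyte alpha subunits. Where islands were called, their score percentiles were 7.39 to 49.9 for Itga6, 17.5 to 49.5 for Itga7 and 0.927 to 69.8 for Itga3.

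Of the 8 beta subunits, Itgb1, the common partner of the collagen, laminin and fibronectin receptors, and Itgb5, a partner of alphav, were marked in 12 lists each. Itgb1 was 2000, 1400 and 1800 bp wide in SD, 3400, 4000 and 3200 bp in CR, 3800, 1600 and 2600 bp in HF, 0, 0 and 1200 bp in YD, and 2000, 1600 and 0 bp in RD. CR did not overlap SD, with CR the wider, and YD lay below SD. Itgb5 was 0, 1000 and 1000 bp wide in SD, 1600, 2000 and 1200 bp in CR, 2200, 1600 and 2000 bp in HF, 0, 1000 and 0 bp in YD, and 800, 1000 and 800 bp in RD. Both CR and HF were above SD without overlap, and RD and SD overlapped. Itgb3, another alphav partner and a platelet receptor subunit, was 1400 bp wide in SD_2, 800 bp in CR_3, 3800 bp in HF_1 and 1200 bp in HF_3. Itgb8, which with alphav activates TGF-beta, was 1000 bp wide in HF_2 and HF_3 and 1600 bp in RD_3, and was the only member with fewer than 4 islands that was marked in a corn diet.

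The genes restricted to blood cells were marked only in HF_1 and HF_3. Itgb2, the beta subunit shared by the leukocyte integrins, was 2000 bp wide in HF_1 and 2400 bp in HF_3 and had no island in HF_2 or in the 12 lists of other diets. Its partner Itgal, which with Itgb2 forms LFA-1, was 1000 and 2000 bp wide in the same lists. Fermt3, the kindlin of blood cells, was 1800 and 2000 bp wide there, and Itga4, the alpha subunit of VLA-4, was 2600 bp wide in HF_1 alone. In all, 4 of the 11 blood-cell members were marked in HF_1, 3 in HF_3 and 0 in each of the other 13 lists. Over all coding genes, 54.6% had an island in HF_1 and 51.5% in HF_3, more than in any other list. The blood-cell members were thus marked less often than coding genes in general in both lists. Leukocyte markers were also marked most often in HF_1 and HF_3, but not only there. Of 8 such genes, 5 had an island in HF_1 and 4 in HF_3, against 0 in HF_2 and 0 to 3 in the other diets. RD_2 had 3 of them and none of the blood-cell members. Ptprc was marked in 1 HF, 1 SD, 1 CR and 2 RD lists, and Coro1a, Spi1 and Cd53 also had islands outside HF. The T and B cell genes Cd3e and Cd79a had none in any list, while Laptm5 and the Kupffer cell gene Clec4f were marked in HF_1 and HF_3 and nowhere else. Of 7 Kupffer cell markers, 3 were marked in HF_1, 1 in HF_3 and 0 in every other list, with Vsig4, Csf1r, Marco and Timd4 at 0 throughout. Of 7 sinusoidal endothelial markers, 7 were marked in HF_1, 5 in HF_3, 2 in HF_2, 0 to 4 in SD, 2 to 3 in CR and 0 to 1 in the corn diets. The part of these cells in the HF islands was not tested.

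Within the ILK complex, Ilk itself was marked in all 15 lists. It was 3400, 3200 and 2400 bp wide in SD, 2000, 3600 and 2200 bp in CR, 4200, 2800 and 4800 bp in HF, 2000, 1200 and 800 bp in YD, and 1000, 2400 and 1600 bp in RD. All YD widths were below all SD widths, and RD overlapped SD by a single width, since RD_2 and SD_3 were both 2400 bp wide. Its score percentile was 83.6 to 95.7 in SD, CR and HF, 80, 46.9 and 4.53 in YD and 70, 90.2 and 82.1 in RD, so that in YD_3 the Ilk island was among the lowest-scoring of its list. The stretch chr7:105737001-105737400 was in the island of every list. The median island reached from 591 bp upstream to 1608 bp downstream of the TSS. Rrp8, a nucleolar protein gene, starts 189 bp away on the opposite strand, and the island spanned both starts in 13 lists.

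**Figure D3:**
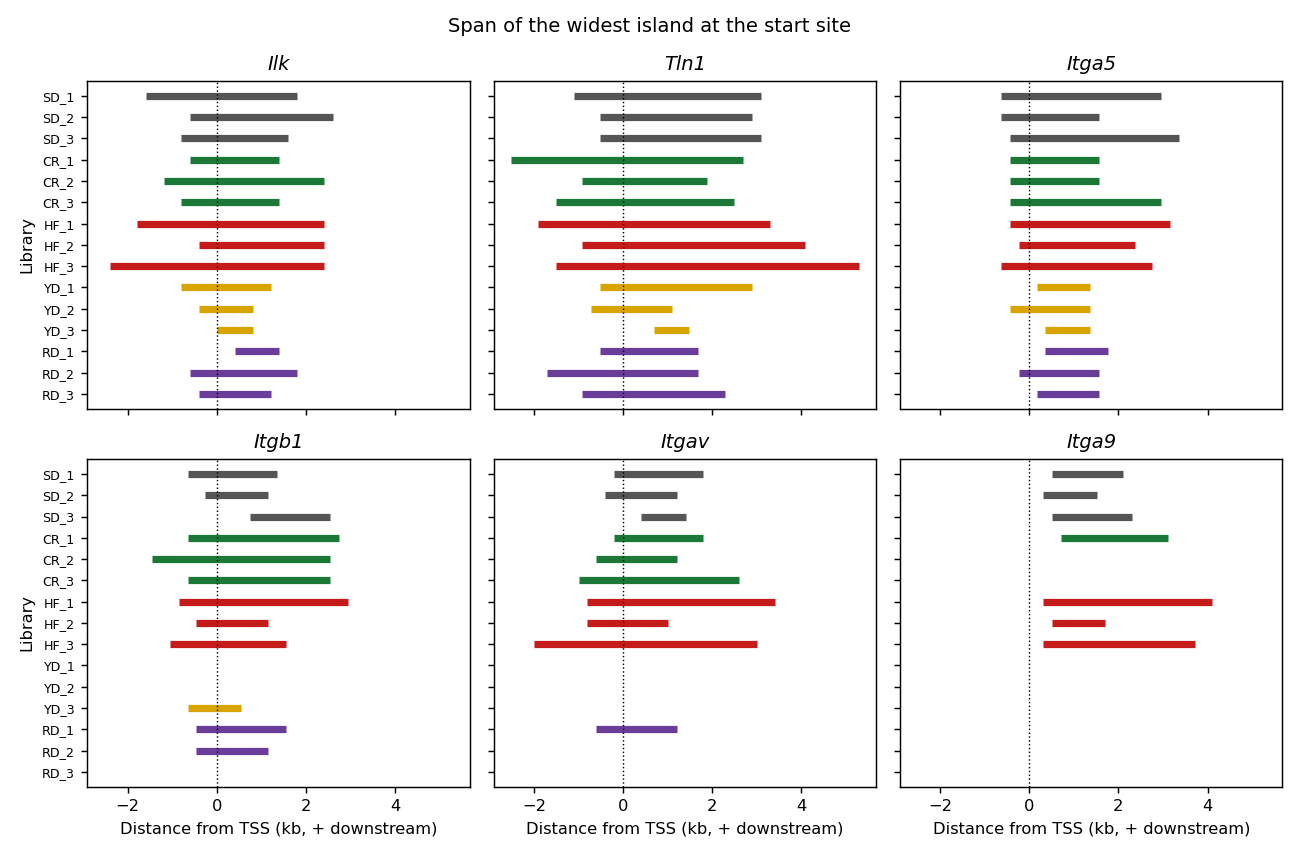
Span of the widest island of 6 genes in each of the 15 lists, as distance from the TSS in kb on the horizontal axis (positive is downstream) and by library on the vertical axis, with bars coloured by diet and the TSS dotted. The Ilk, Tln1 and Itga5 islands are present in every library, that of Itga5 is shorter in each YD and RD library than in any other, Itgav has a bar in 1 of 6 corn-diet libraries, and all 7 Itga9 bars start downstream of the TSS.

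The partners of Ilk differed among themselves. Lims2, which encodes PINCH2, was 3000, 2600 and 1200 bp wide in SD, 3600, 3400 and 2800 bp in CR, 4400, 2600 and 6200 bp in HF, 0, 1000 and 0 bp in YD, and 800, 2200 and 2200 bp in RD. Lims1, which encodes PINCH1, was narrower and rarer, with 1600, 0 and 0 bp in SD, 1600, 800 and 0 bp in CR, 800, 1400 and 1400 bp in HF, and no island in the corn diets. The CR_1 island of Lims1 lay at another start site, at chr10:58392201-58393800. Parva, the widely expressed parvin, was 2000, 1000 and 2600 bp wide in SD, 0, 1600 and 2200 bp in CR, and 2000, 1800 and 3000 bp in HF. It had no island in YD and 1200 bp in RD_1 alone, the same corn-diet library that marked Itgav. Parvb, the parvin of muscle and heart, was 1400 bp wide in HF_3 only, at a score percentile of 1.48. Rsu1, which binds PINCH1, was marked in 14 lists, between 800 and 3400 bp, and YD_3 lacked it.

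Among the linkers, Tln1 had the widest islands of the family. This gene encodes talin 1, which activates integrins, and its island was 4200, 3400 and 3600 bp wide in SD, 5200, 2800 and 4000 bp in CR, 5200, 5000 and 6800 bp in HF, 3400, 1800 and 800 bp in YD, and 2200, 3400 and 3200 bp in RD. Every HF width was above every SD width, and chr4:43561601-43562000 was shared by all 15 lists. The island spanned the TSS in 14 lists, and Creb3, which encodes a transcription factor, starts 122 bp away on the opposite strand. Ptk2, which encodes focal adhesion kinase, was 1000, 1200 and 1000 bp wide in SD, 2600, 2600 and 2000 bp in CR, 3800, 3200 and 3600 bp in HF, 600, 0 and 0 bp in YD, and 2400, 800 and 0 bp in RD. HF and CR each stood above SD and YD below it, without overlap. The start of a divergent noncoding transcript, Gm49066, lies 31 bp from that of Ptk2.

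Vcl and Pxn were marked in every list and varied less between diets. Vcl, which encodes the actin-binding protein vinculin, was 2000, 2200 and 1000 bp wide in SD, 1800, 2000 and 4000 bp in CR, 3400, 1800 and 4000 bp in HF, 2200, 1800 and 1400 bp in YD and 1200, 2200 and 1000 bp in RD. Pxn, which encodes the scaffold paxillin, was 3000, 3400 and 1400 bp wide in SD, 2200, 3800 and 2600 bp in CR, 4600, 2200 and 3400 bp in HF, 2200, 1400 and 800 bp in YD and 2200, 2400 and 1600 bp in RD. The diets overlapped for both genes. The widest Pxn island of HF_3 lay apart from the others, at chr5:115513601-115517000. Fermt2, the kindlin of most solid tissues, was 2400, 1600 and 0 bp wide in SD, 2400, 2600 and 1400 bp in CR, 6200, 2800 and 3000 bp in HF, 1800, 1400 and 0 bp in YD, and 600, 2400 and 1200 bp in RD. The SD_2 island of Fermt2 lay at another start site, at chr14:45476401-45478000. A divergent noncoding transcript, 4930527F14Rik, starts 240 bp from its main start. Fermt1, the kindlin of epithelia, was 1600 and 400 bp wide in CR_2 and CR_3 only, at percentiles of 0.509 or lower, near the bottom of both lists.

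The first comparison set the corn diets, RD and YD, against SD, CR and HF, and asked how the lists that share the corn seed base differ from the rest. Islands at 13 of the 22 family genes tested were narrower in the corn diets (59.1%, by limma at an adjusted p under 0.05), and none was wider, beside 0.00893% of all genes. Narrowing was general: 42.9% of the 11200 genes tested were called narrower, 97.9% had a negative difference, and the median difference of log2(width + 200 bp) was -1.24 over all genes and -1.25 over the family. The called genes with the largest differences were Itgav at -3.08 (SE 0.53, adjusted p = 0.00209), Itga9 at -2.70 (SE 0.57, adjusted p = 0.00467) and Parva at -2.58 (SE 0.63, adjusted p = 0.0095). Of the 22 genes, 10 had fewer than 3 islands in the corn-diet lists and could not have passed the filter on those lists (45.5%, beside 41.8% of all genes tested). Itgb8 was among them, with 2 islands in HF and 1 in RD. A gene with no corn-diet island cannot differ in the other direction, so the counts of calls are a description only. Of the 13 called genes, 6 had fewer than 3 corn-diet islands, namely Itga6, Itga7, Itga9, Itgav, Lims1 and Parva. The same held for 2931 of the 4809 genes called in all. Mean width was 300 bp in the corn diets and 2556 bp in the others for Itgav, 200 and 1800 bp for Parva, and 0 and 1711 bp for Itga9. Among all genes tested, 0.92% had a lower difference than Itgav, 3.63% a lower one than Itga9 and 5.18% a lower one than Parva. Next came Ptk2 at -2.19, Itgb1 at -2.18, Lims2 at -2.02 and Lims1 at -1.89, and then Itga7 at -1.56 and Itga1 at -1.47, with adjusted p between 0.00459 and 0.0288. Ilk, at -1.02 (SE 0.27, adjusted p = 0.0131), Itga5 at -0.93 (adjusted p = 0.0117), Tln1 at -0.89 (adjusted p = 0.0186) and Itga6 at -0.84 (adjusted p = 0.0299) were called as well, but lay above the median of all genes, so that they narrowed by less than the median gene tested.

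The other 9 genes tested were not called. Their differences ran from -1.61 for Itga3 (adjusted p = 0.0685) to -0.05 for Itgb8 (adjusted p = 0.937), with Pxn at -0.69 (adjusted p = 0.0617) and Vcl at -0.48 (adjusted p = 0.167). An exact permutation test over all 5005 assignments of the 6 corn-diet and 9 other libraries, two-sided and adjusted over the same genes, called 9 family genes (40.9%) narrower beside 30.8% of all genes, and left out Itga1, Itga6, Itga7 and Lims1, which have adjusted p of 0.0564, 0.272, 0.111 and 0.0667. Itga6 had its 3 islands in HF, so its call came from those lists alone. When HF was left out of the contrast, 7 of 22 family genes (Itga5, Itga9, Itgav, Itgb1, Lims2, Parva and Ptk2) were narrower, beside 1277 of all 11200 genes tested. Among the 10 lists of the ChIP name form, 3 of 17 family genes tested (Itgav, Parva and Itga9) were narrower, beside 236 of all 10174 genes tested. These 3 are among the genes above with fewer than 3 islands in the corn-diet lists. The PATChIP form holds a single corn-diet library and gives no test. With the name form as a term, 13 of 22 family genes were narrower, beside 4873 of all 11200 genes tested. When the widths were brought to 1 distribution by quantile normalization, which takes out the general narrowing, none of the family and 21 genes in all were narrower. Itgav then stood at -1.46 (adjusted p = 0.173). When each library was left out in turn, 11 to 14 family genes were called, among them in every case Ilk, Itga5, Itga7, Itga9, Itgav, Itgb1, Lims1, Lims2, Parva, Ptk2 and Tln1. Itga1 lost its call without SD_1, CR_3, YD_2, YD_3, RD_1 or RD_3, with adjusted p between 0.0533 and 0.0693. Itga6 lost it without YD_2, YD_3, RD_1 or RD_3 (0.0513 to 0.0618), and was not tested without any of the HF libraries. Of the marker lists, sinusoidal endothelium had 0 to 1 of 7 genes with an island in the corn-diet lists and 0 to 7 in the others, stellate cells 0 to 1 and 0 to 4 of 6, and hepatocytes 4 to 8 and 5 to 8 of 8. The part of these cells in the width differences was not tested.

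**Figure D4:**
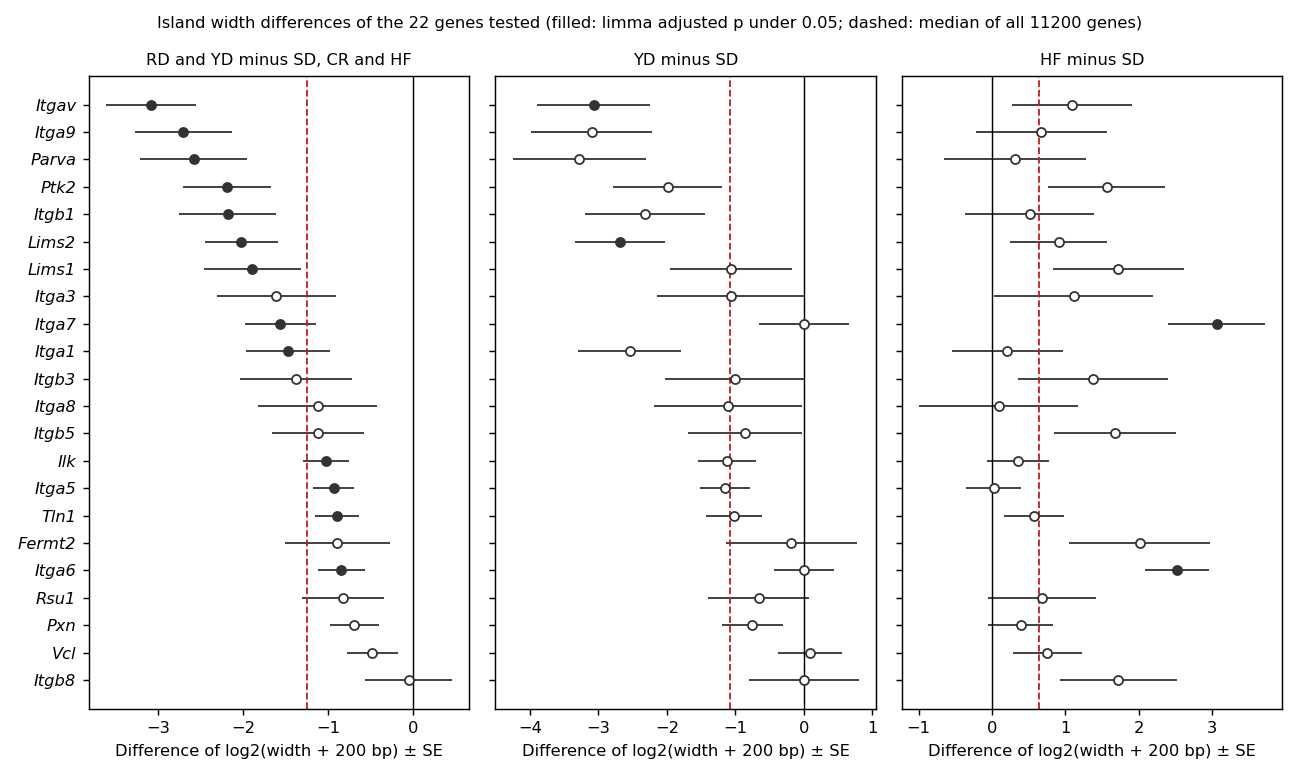
Difference of log2(width + 200 bp) with its SE for the 22 family genes tested, for the corn diets against SD, CR and HF, for YD against SD and for HF against SD; filled points have a limma adjusted p under 0.05 and the dashed line is the median of all 11200 genes. In the first panel every point lies below 0 and 13 are filled, with Itgav at -3.08 and Itgb8 at -0.05; in the third panel the filled points are Itga6 at 2.52 and Itga7 at 3.06, which passed the filter through the HF lists alone.

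Each diet was next compared with SD, the reference feed, and these comparisons share the 3 SD libraries. In YD, Lims2 and Itgav were narrower than in SD (2 of 22, or 9.09%, beside 6.04% of all genes tested). Lims2 differed by -2.68 on the log2 scale (SE 0.66, adjusted p = 0.032) and Itgav by -3.07 (SE 0.82, adjusted p = 0.0407). Itga9 and Parva, with no island in YD and an island in every SD list, stood at -3.10 and -3.28 with adjusted p of 0.0512 and 0.0578. These genes and Itgav were the 3 with an island in all SD and no YD list (7.32% of the family, beside 3.5% of all coding genes). Widths did not overlap for 8 family genes (19.5%, beside 8.4%), all narrower in YD, namely Itga5, Itga9, Itgav, Itgb1, Ilk, Parva, Lims2 and Ptk2. With 3 mice in each diet the smallest two-sided exact p is 0.1. The median difference was -1.06 over the family and -1.08 over all genes, and Ilk, at -1.12 (adjusted p = 0.129), lay next to it. The YD calls depended on single libraries. Without SD_1, SD_2 or YD_3 no family gene was called, and without YD_1 there were 6 (Ilk, Itga1, Itgav, Lims2, Ptk2 and Tln1). Calls over all genes also varied, from 170 to 1428 with each library left out, so these family counts are a description only. Lims2 had adjusted p of 0.116, 0.0916 and 0.0967 without SD_1, SD_2 and YD_3, and Itgav lost its call without any of 9 libraries (0.0556 to 0.133).

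In RD against SD, limma called no family gene, beside 28 genes narrower in all (0.25%) and none wider. At an unadjusted p under 0.05, Itga5, Itga9, Itgav and Parva were lower in RD (4 of 22, or 18.2%, beside 10.3% of all genes), and none was higher, beside 0.33%. Itga9 had the largest difference, at -3.10 (SE 0.89, adjusted p = 0.185), and was the only member with an island in all SD lists and no RD list, beside 1.05% of all coding genes. Widths of Itga5 and Itga9 did not overlap between these diets (4.88%, beside 4.56%). Without CR_1, which enters through the shared spread, Itga9 was called in RD against SD. Ilk stood at -0.83 (SE 0.42, adjusted p = 0.493). Differences were positive for Itgb8, Itgb5 and Fermt2, at 1.06, 0.69 and 0.55, with adjusted p of 0.723 or more. The family median was -0.51, beside -0.53 over all genes.

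The comparison of RD with YD bears on the purple pigment, since both carry corn of near-isogenic lines. Limma called no family gene, while 1.01% of all genes were wider in RD and 0.0179% narrower. Lims2, at 2.30 (SE 0.66, adjusted p = 0.147), and Itga1, at 2.36 (SE 0.75, adjusted p = 0.21), had the largest differences, with means of 1733 against 333 bp and 2133 against 667 bp, and were the 2 with an unadjusted p under 0.05 (9.09%, beside 10.4%), with none in the other direction, beside 0.616%. No family gene had widths that did not overlap between RD and YD, beside 2.44% of all coding genes with RD the wider and 0.115% with YD the wider. Without YD_1 Itga1 was called wider in RD, and without YD_2 Lims2 was. Of the 22 genes, 14 had a positive difference, 1 a negative one (Vcl, at -0.31) and the rest no island in either diet.

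In HF against SD, all 22 family genes had a positive difference of log2(width + 200 bp), as did most genes, since 10.3% of all tested lay below 0 and the median was 0.64 (0.83 over the family). Itga6, at 2.52 (SE 0.44, adjusted p = 0.00389), and Itga7, at 3.06 (SE 0.66, adjusted p = 0.0185), were called wider (9.09%, beside 2.87% of all genes tested). Both had fewer than 3 islands outside HF and so entered the test through the diet in which they were high, as did 265 of the 321 genes called in all, and these calls are given as a description only. Both had an island in all HF lists and no SD list, as did 1.82% of all coding genes. Because both are at 0 in nearly all other lists, the shared spread behind these SEs is set largely by lists without an island. Neither gene had a call without HF_1 or without HF_3. Itga6 then had islands in 2 lists only and was not tested, and Itga7 had adjusted p of 0.176 and 0.172. Without SD_3 Itga7 had an adjusted p of 0.0633, and without HF_2 Itga6 was not tested. Widths did not overlap for 7 family genes (17.1%, beside 9.36% of all coding genes), namely Itga6, Itga7, Itgb5, Rsu1, Ptk2, Tln1 and Fermt2. Ptk2 had means of 3533 bp in HF and 1067 bp in SD, a difference of 1.56 (SE 0.80, adjusted p = 0.444), and Fermt2 4000 and 1333 bp, a difference of 2.01 (SE 0.96, adjusted p = 0.385). Ilk, at 0.35, and Itga5, at 0.02, were below the median of all genes.

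In CR against SD, limma called no family gene in either direction, beside 0.125% of all genes wider and 0.00893% narrower. Itga7, at 1.60 (SE 0.66, adjusted p = 0.845), was the only family gene with an unadjusted p under 0.05 (4.55%, beside 4.54%), and none was lower at that level, beside 0.812%. Itgb1, Itgb5 and Ptk2 were wider in CR without overlap (7.32%, beside 2.78%), with means of 3533 against 1733 bp, 1600 against 667 bp and 2400 against 1067 bp, and differences of 0.96, 1.42 and 1.03. Itga9 stood apart in the other direction, at -1.87 (SE 0.89, adjusted p = 0.949), since CR_2 and CR_3 lacked its island.

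Genes that act with the family were listed in the same way. Of 40 genes for adhesion signalling and adaptors, 36 were tested and 22 were narrower in the corn diets than in SD, CR and HF (61.1%, beside 42.9% of all genes), with a median difference of -1.46, beside -1.24 over all genes. They included Actn1 and Actn4 (alpha-actinins), Flna (a filamin), Tns1, Tns2 and Tns3 (tensins), Bcar1 (the p130Cas scaffold), Rap1a and Rap1b (GTPases that recruit talin), and the kinases Akt1, Akt2 and Gsk3b downstream of ILK. Some of the called genes, such as Flna and Tns1 with no corn-diet island, passed the filter through SD, CR and HF alone. Genes of that kind can hardly differ in the other direction, so these counts too are a description only. In YD against SD, 4 of the 36 genes were narrower (Actn1, Lpxn, Pak2 and Rap1a, or 11.1%, beside 6.04%). In RD against YD, Lpxn and Yes1 were wider (5.56%, beside 1.01%). None was called in RD, HF or CR against SD. Of 20 ligand genes, 12 were tested, and Fn1 (fibronectin), Icam1 (the LFA-1 ligand) and Vtn (vitronectin) were narrower in the corn diets (25.0%, beside 42.9%). The median difference of the 12 was -0.96. Differences between these lists and other genes were not tested. None of the ligand genes was called in another comparison.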

How the data were processed

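H3K4me3 PAT-ChIP-seq reads from the livers of 15 mice were aligned to mm10 with BWA, filtered with SAMtools and passed to SICER by the authors, with windows of 200 bp and gaps of 400 bp. The deposited lists give the position and the score of each island per library; whether the study's false discovery threshold was applied to them is not given in the sources used here. Positions are printed from 1.

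For each coding gene (GENCODE M21, 21755 genes), the widest island within 1 kb of a TSS was taken, and a gene entered the tests with an island in at least 3 of 15 libraries. Widths were tested as log2(width + 200 bp) with limma 3.58.1 (R 4.3.3, 1 fit with diet as the only term, trended eBayes, Benjamini-Hochberg, threshold 0.05), a test of widths in place of the study's test of reads, which were not used here. The SE of a gene with no island in most diets is small for that reason. How many true changes the limma tests miss, and how many false calls they give, was not tested on the widths of these lists. Reads per library (5589269 to 15449854) were recovered from the steps of single-window scores with an effective genome fraction of 0.74; they set the depth, and scores cannot be compared between lists. Replicate numbers only name mice. The limma p-values set a difference between diets against the spread between these libraries within diets. Alternatives covered the distance to the TSS, score and width thresholds, pseudocounts of 50 and 1000 bp, filters, quantile normalization, the form of the library name and each library left out. Named genes were Ilk, Itgb1, Itgb2 and Itgav, those called by limma, the widest, the non-overlapping ones with the largest differences and those with 1 to 3 islands; the remaining genes with islands were added. The family, the gene lists and these rules were chosen with earlier results of these data known. Some genes of the fixed lists enter the counts and are not reported here by name.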

Additional observations from a re-analysis of the deposited data

How the results depend on the processing

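The direction of the corn-diet difference held for every called family gene under the alternatives run, except under quantile normalization, where Itga6, Itga7 and Lims1 turned to 0.6, 0.29 and 0.14 on the log2 scale, and with HF left out of the contrast, where Itga6 stood at 0.0 (adjusted p = 1.0). Counts of calls depended on the processing, and the cause was not tested. Counts below are of genes called by limma, narrower in RD and YD against SD and in the corn diets against SD, CR and HF, and wider in HF and CR against SD and in RD against YD. As reported they were 28, 677, 4809, 321, 14 and 113 genes, of which 0, 2, 13, 2, 0 and 0 belonged to the family. Counts by non-overlap or presence under the alternatives are given without the share of all coding genes and are a description only.

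With quantile normalization the counts were 1 gene for RD, 0 for YD, 21 for the corn diets, 2 for HF, 0 for CR and 0 for RD against YD, with 0 family genes for YD, the corn diets and HF. With the ChIP-form lists alone they were 236 genes and 3 family genes for the corn diets, and 0 genes in each of the other comparisons, with 0 family genes for YD and HF. With the name form as a term, RD and CR had 0 genes. Leaving HF out of the corn contrast, chosen after seeing the data, left 1277 genes and 7 family genes. The corn diets had 1980 genes of 21755 tested with no filter. With an island required in 12 libraries they had 1076 of 5709 genes and 6 of 12 family genes. With no filter RD had 50 genes, YD 396 and 0 of the family, HF 132 and 1 of the family, and CR 1. With 12 libraries RD had 2 genes, YD 183 and 1 of the family, HF 0 and 0, and CR 0. A pseudocount of 50 bp gave 58 genes for RD. A pseudocount of 1000 bp gave 0 genes for RD, 315 for YD with 0 of the family, 0 for CR and 20 for RD against YD.

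When islands had to contain the TSS, 10488 genes were tested, 18 of them of the family. RD then had 7 genes, YD 319 and 0 of the family, and RD against YD 48. The corn diets had 3412 genes with 7 of the family, and HF 307 with 1 of the family. Family genes with an island then averaged 6.33 in YD, 8.33 in RD, 11.7 in SD, 14 in CR and 20 in HF. Non-overlapping family genes were 1 for RD and 4 for YD, and those with an island in all of a diet and none of the other 0 for RD, 1 for YD and 1 for HF. A distance of 3 kb gave 0 genes for CR. Covered bases within 2 kb gave 57 genes for RD. Islands of at least 600 bp gave 1 family gene for HF by limma, beside 320 genes in all, and 1 family gene by presence.

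Islands at or above the median score gave 1 gene for RD, 432 for YD, 3105 for the corn diets, 45 for HF with 0 of the family, and 2 for CR. The diet means were then 4.0 family genes in YD, 8.0 in RD, 10.3 in SD, 13.7 in CR and 15.3 in HF. Non-overlapping family genes were 1 for RD, 4 for YD and 1 for RD against YD, and those present in all of a diet and none of the other 0 for RD and 1 for YD. With the same number of highest-scoring islands from each list, the counts were 10 genes for RD, 4 for YD with 0 of the family, 1404 for the corn diets with 8 of the family, 18 for HF with 0 of the family, 7 for CR and 7 for RD against YD. Under that setting 8839 genes were tested, 15 of them of the family. The means were 10.7 family genes in SD, 13.7 in CR, 13.7 in HF and 7.33 in RD. Non-overlapping family genes were 1 for RD, 4 for YD and 4 for HF, and those present in all of a diet and none of the other 0 for RD, 1 for YD and 0 for HF. With the score percentile in place of the width, RD had 0 genes, YD 241 with 1 of the family, HF 107 with 0 of the family, CR 0 and RD against YD 14. Percentiles did not overlap for 0 family genes between the corn diets and the rest and for 1 between RD and YD.

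With each library left out, genes called ran from 0 to 149 for RD, 170 to 1428 for YD, 3195 to 5914 for the corn diets, 0 to 477 for HF, 0 to 100 for CR and 82 to 374 for RD against YD. Family genes ran from 0 to 1, 0 to 6, 11 to 14, 0 to 2, 0 to 0 and 0 to 1 in that order. For HF the lowest counts were those without HF_1 (0 genes) and HF_3 (1 gene). Non-overlapping family genes ran from 2 to 5 for RD, 8 to 10 for YD, 7 to 16 for HF, 3 to 6 for CR, 1 to 3 for RD against YD and 1 to 3 for the corn diets. Those present in all of a diet and none of the other ran from 1 to 3 for RD, 3 to 5 for YD, 2 to 5 for HF, 0 to 3 for CR and 0 to 2 for RD against YD. With fewer libraries in a diet any gene meets either rule more easily, so a rise in these counts says nothing about the family. The mean number of family genes with an island ran from 7.5 to 9.0 in YD, 11.5 to 13 in RD, 15 to 16.5 in SD, 16.5 to 18.5 in CR and 22 to 24.5 in HF.

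Mice with the same replicate number did not deviate together (mean correlation -0.005, from -0.104 to 0.09). With a replicate block, RD had 0 genes, YD 422 with 1 of the family, CR 0 and the corn diets 4554 with 14 of the family, and the block moved no other count by more than 1.5 times. The lowest score kept ran from 14.5 to 26.8 between lists, and the part of depth in it was not tested. A gene without an island may carry a weaker mark.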

Other observations

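Family genes with 1 to 3 islands differed in how these scored. Score percentiles were 0.421 and 0.509 for the 2 Fermt1 islands, 1.48 for that of Parvb, 8.19 to 17.1 for the 3 of Itgb8 and 2.69 and 19.7 for the 2 of Itgal, while Tln1 had a median of 96.3 over 15 lists and Itga5 of 93.3. The Itgb2 islands stood at 41.9 in HF_1 and 36.5 in HF_3, those of Fermt3 at 48.4 and 19.2, and that of Itga4 at 53.1. The 3 islands of Itga8 ranged from 8.35 to 47.4.

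Where the island lay against the TSS differed between genes. For Tln1 it spanned the TSS in 14 of 15 lists, for Ilk in 13 of 15 and for Vcl in 12 of 15. For Fermt2 it did so in 3 of 12 lists with an island near that site, for Pxn in 5 of 14, for Lims1 in 1 of 5 and for Itga9 in 0 of 7.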
